A study of Mus musculus with 24 samples.

Results

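The comparison described here set gastrocnemius muscle of 3 vehicle-treated male mice that carried the HSA-MCM transgene against the same muscle of 3 vehicle-treated male mice without it. These 6 libraries, of 24 in the series, are the vehicle groups of the male arm and were taken by genotype and treatment as the sample titles give them. All 6 mice were floxed at Numb and Numbl, written Numb(f/f) and NumbL(f/f) in the labels, which put HSA-MCM before these alleles for the carriers. The mice without the transgene are here called flox. The design text of the series names 2 factors, tamoxifen and the transgene, so the vehicle mice show what differed between the genotypes without the drug that activates the recombinase. The male arm also held 3 HSA-MCM and 3 flox mice given tamoxifen, and a female arm held the same 4 groups of 3. Titles in the male arm name the flox mice WT, although the genotype label lists both floxed alleles. Age, litter, dose and the timing of the vehicle were not stated in the labels, and neither was whether the libraries of a group came from separate animals, so the p-values measure the spread between libraries.

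The HSA-MCM transgene makes MerCreMer, a Cre recombinase flanked by mutated ligand-binding domains of the mouse oestrogen receptor, and its promoter, that of human skeletal actin, confines it to muscle fibres. Without tamoxifen the fusion protein is held in the cytoplasm, and on binding the drug it enters the nucleus and recombines loxP sites. Numb and Numbl encode endocytic adaptor proteins that bind the Notch receptor and take part in cell fate choice and, in muscle, in fibre structure. The oestrogen receptor domains of the fusion are made from Esr1 sequence, so transcripts of the transgene can be counted as Esr1.

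The labels of the vehicle HSA-MCM males disagree with each other. Their titles say vehicle control, while their treatment field says tamoxifen, and the titles were followed. Flrt1, a membrane protein gene that was high in every tamoxifen male library at 171 CPM or more, was at 3.32, 3.73 and 3.81 CPM in the HSA-MCM vehicle males and at 1.72, 2.37 and 1.92 CPM in the flox vehicle males. CPM are counts scaled to a common library size after TMM normalization. The vehicle libraries held 25888281 to 28080536 counts in HSA-MCM males and 21516819 to 26563217 counts in flox males, and reads of the mitochondrial genome took 7.31 to 11.0% of them in HSA-MCM males and 10.5 to 11.3% in flox males. The third HSA-MCM library stood apart, with 63.2 CPM of the slow myosin gene Myh7 against 422 and 937 CPM in the other two. The third flox library also stood apart, with 259 CPM of the heat shock gene Hspa1a against 11.0 and 7.21 CPM in the other two. HSA-MCM mice have title numbers from 1039 to 1085 and flox mice from 2702 to 2751, so genotype and title series cannot be told apart. In the vehicle males, the fibre marker list summed to 178129 to 206585 CPM in HSA-MCM and 152068 to 164761 CPM in flox.

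Over 15628 genes tested, 148 genes (0.947%) differed between HSA-MCM and flox vehicle males at an adjusted p under 0.05 in edgeR's quasi-likelihood test, and such genes are written as called. Of these, 60 genes (0.384%) were higher and 88 genes (0.563%) were lower in HSA-MCM muscle. The difference reached at least 2-fold for 20 of the higher genes and for 55 of the lower genes. In all 148 the 3 HSA-MCM libraries lay on one side of the 3 flox libraries, as was the case for 22.6% of all genes tested. The median log2 fold change over all genes was -0.02. The number called fell to 52 without the first HSA-MCM library, 59 without the third, 44 without the first flox library and 63 without the second, so a large share of the 148 rests on having all 6 libraries. It was 72 without replicate 3 of both groups, a setting added after the data were seen.

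The same contrast after tamoxifen, in 6 other male libraries, called 817 genes (5.23%), 432 higher and 385 lower in HSA-MCM. Of the 148 vehicle genes, 78 (0.499% of all genes tested) were called in both contrasts in the same direction, 39 higher and 39 lower, and 0 were called in opposite directions. The 78 are 52.7% of the vehicle calls and 9.55% of the tamoxifen calls. With or without a call, 134 of the 148 had the same sign after tamoxifen and 14 the opposite sign, and 102 had the tamoxifen groups apart in the same direction, where 27.7% of all genes tested had them apart in either direction. The test of the difference between the contrasts called 2 genes (0.0128%) and had 1290 genes at an unadjusted p under 0.05, so for nearly all genes a call in vehicle alone is not a shown difference from tamoxifen. The shared count ranged from 32 to 102 when 1 of the 12 libraries was left out. It was 35 without the first and 38 without the third HSA-MCM vehicle library, 32 without the first and 33 without the second flox vehicle library, 47 and 48 without the second and the third HSA-MCM tamoxifen libraries, and 50, 46 and 48 without the first, the second and the third flox tamoxifen libraries.

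**Figure D1:**
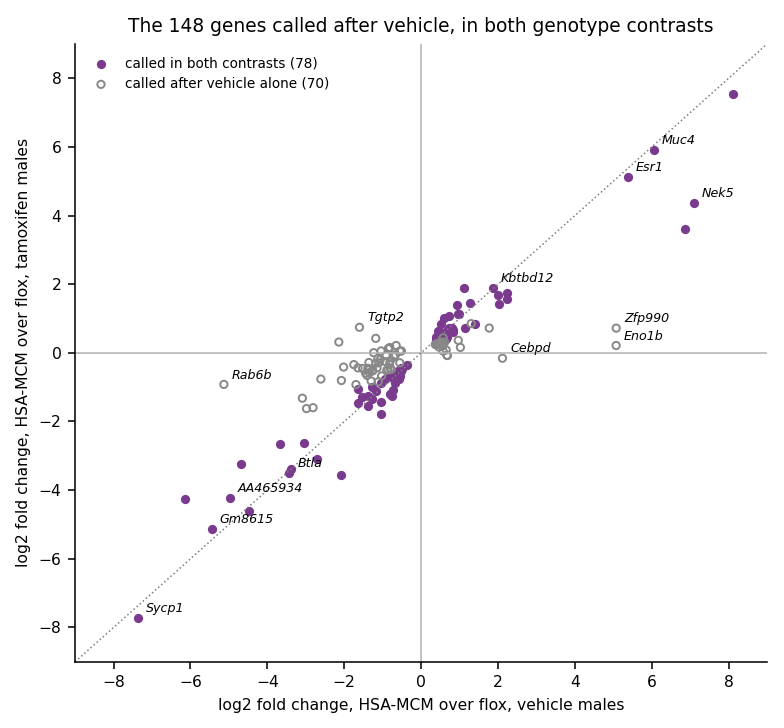
Log2 fold change of HSA-MCM over flox males after vehicle (horizontal axis) and after tamoxifen (vertical axis) for the 148 genes called after vehicle. Filled points are the 78 genes called in both contrasts, open points the 70 called after vehicle alone; most lie at the lower left or the upper right, and Eno1b lies near 0 on the vertical axis.

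Esr1, the oestrogen receptor alpha gene whose sequence the transgene shares, rose in every carrier. It stood at 640.4, 1158 and 1466 CPM in HSA-MCM vehicle males, against 23.4, 26.1 and 28.8 CPM in flox vehicle males. The groups were far apart, and the carriers differed more among themselves than the flox mice did. The log2 fold change was 5.38 ± 0.38 (SE, edgeR adjusted p = 9.45e-05), a 41.7-fold difference, and it was 5.12 after tamoxifen. Female HSA-MCM vehicle libraries, which lie in a table of their own, held 868 to 1124 CPM, against 26.2 to 32.8 CPM in flox females. Reads of the transgene and of the native gene were not separated in the counts. Acta1, the skeletal actin gene whose human promoter drives the transgene, had a log2 fold change of 0.20 (edgeR adjusted p = 0.574).

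Neither floxed gene was called after vehicle. Numb stood at 18.4, 21.04 and 19.1 CPM in HSA-MCM and at 20.6, 19.6 and 17.5 CPM in flox vehicle males, with overlapping groups and a log2 fold change of 0.02 ± 0.10 (SE, edgeR adjusted p = 0.936). Numbl stood at 3.25, 2.88 and 3.02 CPM in HSA-MCM and at 4.09, 4.38 and 3.55 CPM in flox vehicle males. Its groups did not overlap, but the log2 fold change of -0.39 ± 0.18 did not pass the test (edgeR adjusted p = 0.293). The sign of the Numb value turned without the second HSA-MCM library (-0.04), without the third flox library (-0.04) and without replicate 3 of both groups (-0.03). After tamoxifen neither gene was called. Numb then had 0.25 (edgeR adjusted p = 0.151), with the groups apart and higher in HSA-MCM, and Numbl had -0.57 (adjusted p = 0.0828). Counts per gene thus did not show less Numb even in tamoxifen carriers. Whether the floxed alleles were recombined after vehicle was not tested.

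A set of the called genes were near-identical copies of genes elsewhere in the genome, so that reads of one can be counted to the other. Here the resembled gene is written as the parent. Gm8615, Gm5182 and Rpl3-ps1 are annotated as processed pseudogenes, Gm4737 and Gm4353 as protein coding and Gm7292 as a lincRNA. Copies were found by sequence identity, and whether they lack introns was not tested. In the GENCODE M21 transcripts of GRCm38, 24 of the 148 called genes had a transcript of another gene at 95% identity or more over at least 50% of the shorter transcript, and for 16 of them that other gene was tested. The stretches below are shown because they hold some of the few bases at which a copy and its parent can be told apart. Each is 60 coding bases of parent and copy on the coding strand, 5′ to 3′, with the differing bases in capitals.
Ahcy: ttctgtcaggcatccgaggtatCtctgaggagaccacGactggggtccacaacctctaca
Gm4737: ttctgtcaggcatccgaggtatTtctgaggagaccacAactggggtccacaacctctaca
Nup35: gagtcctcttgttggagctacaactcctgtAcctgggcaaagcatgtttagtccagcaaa
Gm4353: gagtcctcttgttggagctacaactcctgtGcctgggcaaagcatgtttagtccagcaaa
Rpl3: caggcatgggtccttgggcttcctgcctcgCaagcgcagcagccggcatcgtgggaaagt
Rpl3-ps1: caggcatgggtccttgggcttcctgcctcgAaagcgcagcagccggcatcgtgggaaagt
Ahcy (chr2:155059310-155074497, minus strand) and Gm4737 (chr16:46152985-46155077, minus strand) differ at 4 of 1299 coding bases, and the stretch covers coding positions 437 to 496. Nup35 (chr2:80617236-80658906, plus strand) and Gm4353 (chr7:116082863-116084635, minus strand) differ at 1 of 978 coding bases, within positions 360 to 419. Rpl3 (chr15:80077791-80091868, minus strand) and Rpl3-ps1 (chrX:13202571-13203780, plus strand) differ at 2 of 1209 aligned coding bases, and the stretch covers positions 27 to 86. Positions count from the A of the parent's start codon. How the deposited counting treated reads that map to several places is not given in the sources used here, so the levels of these pairs are uncertain between copy and parent.

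The copy Gm4737 was nearly absent from carriers. It stood at 0.428, 0.333 and 0.456 CPM in HSA-MCM and at 8.67, 9.01 and 9.82 CPM in flox vehicle males, a log2 fold change of -4.49 ± 0.31 (SE, edgeR adjusted p = 1.26e-05), with -4.60 after tamoxifen. Its parent Ahcy, which hydrolyses S-adenosylhomocysteine, moved the other way, at 31.3, 29.9 and 39.6 CPM in HSA-MCM and 15.7, 13.998 and 16.2 CPM in flox vehicle males (1.13 ± 0.17, adjusted p = 0.00911). The Ahcy call was lost without the first or the second flox library (highest adjusted p = 0.0762 over all settings). Summed over copy and parent, the pair held 31.7, 30.2 and 40.0 CPM in HSA-MCM and 24.4, 23.007 and 26.0 CPM in flox males, so the sum still lay higher in each carrier. In females the copy was at 0.0978 CPM or less in both genotypes and Ahcy was at 3.30, 3.22 and 3.10 CPM in HSA-MCM against 12.4, 11.2 and 12.6 CPM in flox, the opposite order to that in males.

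Further copies were also lower in carriers, and none of the genes they resemble passed the test. Gm8615 (chr5:149155108-149156209, minus strand) stood at 0.0357, 0.0370 and 0.0829 CPM in HSA-MCM and at 1.72, 3.48 and 2.01 CPM in flox vehicle males, a log2 fold change of -5.45 ± 0.44 (SE, edgeR adjusted p = 5.08e-05). Gnpda1, a glucosamine-6-phosphate deaminase gene to which it is 99.1% identical over the aligned bases, had a log2 fold change of 0.13 (adjusted p = 0.834). Gm4353 stood at 0.0357, 0.0740 and 0.0829 CPM in HSA-MCM and at 0.613, 0.969 and 1.03 CPM in flox vehicle males, with -3.68 (adjusted p = 0.00128), while Nup35, a nuclear pore protein gene, had -0.39 (adjusted p = 0.121). Gm7292 stood at 3.17, 2.03 and 3.19 CPM in HSA-MCM and at 25.4, 29.7 and 32.9 CPM in flox vehicle males, with -3.39 (adjusted p = 5.08e-05). Its near copy 2900097C17Rik, at 99.2% identity, had 0.20 (adjusted p = 0.421). Gm5182, a processed copy of the acetyl-CoA carboxylase gene Acaca, was at 0.178, 0.111 and 0.207 CPM in HSA-MCM and at 1.02, 1.33 and 0.935 CPM in flox vehicle males, with -2.71 (adjusted p = 0.0253), and Acaca had 0.32 (adjusted p = 0.254), with its groups apart in the other direction, at 18.6 to 21.003 CPM in HSA-MCM and 15.3 to 16.6 CPM in flox vehicle males. Each of these 4 copies was also called lower in carriers after tamoxifen.

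For Rpl3, a protein of the large ribosomal subunit, the copy was the higher one in carriers. Rpl3-ps1 stood at 3.35, 3.402 and 2.36 CPM in HSA-MCM and at 0.613, 0.610 and 0.701 CPM in flox vehicle males (2.24 ± 0.48, edgeR adjusted p = 0.0473). Rpl3 itself stood at 21.7, 21.2 and 18.97 CPM in HSA-MCM and at 39.5, 37.6 and 33.7 CPM in flox vehicle males (-0.84 ± 0.15, adjusted p = 0.0253). Rpl3-ps1 lost its call in limma-voom (adjusted p = 0.116), with Myh7 as a covariate (0.0517) and without any 1 of the 6 vehicle libraries, and Rpl3 and Gm5182 lost theirs without any 1 of them other than the third flox library, at adjusted p of up to 0.175 over these and Ahcy. Gm4737, Gm8615, Gm4353 and Gm7292 kept theirs in every setting tried.

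**Figure D2:**
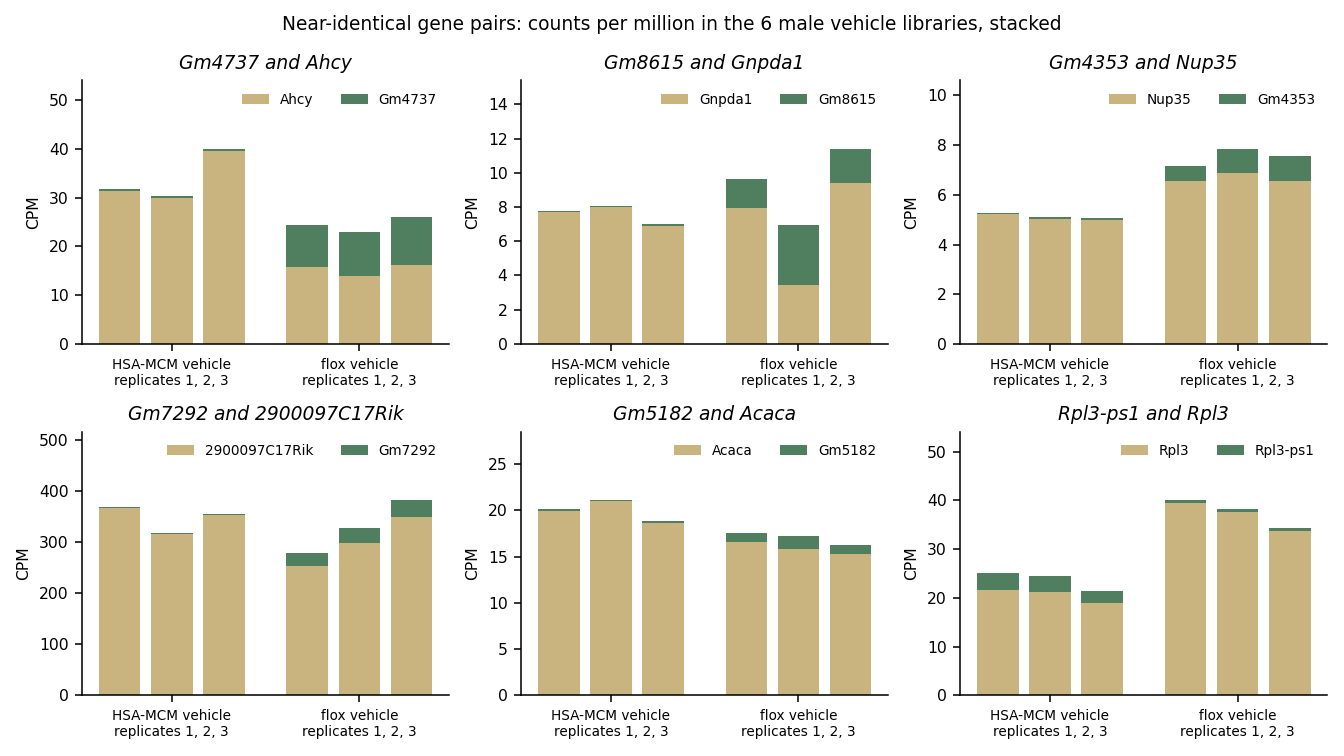
Level in CPM of 6 near-identical copies and the genes they resemble, stacked, in each of the 3 HSA-MCM and 3 flox vehicle male libraries. The copy is lower in HSA-MCM libraries for Gm4737, Gm8615, Gm4353, Gm7292 and Gm5182, and higher in HSA-MCM libraries for Rpl3-ps1.

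The genes higher in carriers in both contrasts included Kbtbd12, Metap1d, Nin and Map2k7. Kbtbd12, which encodes a protein with kelch repeats and a BTB domain, stood at 137, 126.0 and 165 CPM in HSA-MCM and at 35.1, 41.3 and 41.1 CPM in flox vehicle males. Its lowest carrier was more than 3-fold above its highest flox library, and the log2 fold change was 1.86 ± 0.18 (SE, edgeR adjusted p = 0.000292) after vehicle and 1.88 after tamoxifen. Metap1d, a mitochondrial methionine aminopeptidase, stood at 29.6, 31.7 and 24.3 CPM in HSA-MCM and at 12.1, 10.2 and 13.1 CPM in flox vehicle males. It had 1.28 ± 0.14 (adjusted p = 0.000463) after vehicle and 1.44 after tamoxifen. Nin, the centrosome protein ninein, stood at 71.6, 67.7 and 70.4 CPM in HSA-MCM and at 40.7, 41.6 and 35.3 CPM in flox vehicle males, with 0.83 ± 0.10 (adjusted p = 0.00124). For these genes, as for Esr1, the groups were apart in both treatments.

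Map2k7, Spag9, Vps36, Snapc2 and Hbegf also rose in carriers in both contrasts. Map2k7, the kinase that activates JNK, stood at 53.001, 53.9 and 63.9 CPM in HSA-MCM and at 35.3, 37.8 and 36.7 CPM in flox vehicle males (log2 fold change 0.64 ± 0.08, edgeR adjusted p = 0.00345). Spag9, a scaffold of the same kinase cascade, stood at 338, 338 and 311 CPM in HSA-MCM and at 199, 196 and 224 CPM in flox vehicle males (0.67 ± 0.10, adjusted p = 0.00573). Vps36, a subunit of the ESCRT-II complex that sorts endosomal cargo, stood at 57.8, 55.9 and 56.5 CPM in HSA-MCM and at 40.7, 41.2 and 40.7 CPM in flox vehicle males (0.47 ± 0.07, adjusted p = 0.00677). The groups of these genes were apart. The spread within groups was small beside the gap for Vps36 and wider for the Map2k7 carriers. Snapc2, a subunit of the complex that starts small nuclear RNA transcription, had 0.98 (adjusted p = 0.00573) after vehicle and 1.13 after tamoxifen. Hbegf, a ligand of the EGF receptor, had 0.94 (adjusted p = 0.00677) after vehicle and 1.38 after tamoxifen. All 5 kept their vehicle calls in every setting.

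Among the genes lower in carriers in both contrasts, were AA465934 and Btla. AA465934 (chr11:83291699-83294632, plus strand), annotated as a processed transcript, stood at 0.285, 0.481 and 0.456 CPM in HSA-MCM and at 12.2, 12.4 and 13.9 CPM in flox vehicle males. Its log2 fold change of -4.97 ± 0.25 had the smallest adjusted p of the vehicle contrast (edgeR, 5.23e-07), and it was -4.22 after tamoxifen. In females it was at 0.367 to 0.656 CPM in HSA-MCM and at 0.683 to 1.14 CPM in flox, so flox females did not have the level of flox males. Btla (chr16:45224315-45257670, plus strand), an inhibitory receptor of lymphocytes, stood at 0.321, 0.111 and 0.0829 CPM in HSA-MCM and at 1.60, 2.405 and 1.78 CPM in flox vehicle males. It had -3.42 ± 0.36 (adjusted p = 0.000463) after vehicle and -3.49 after tamoxifen, while in vehicle females both genotypes were below 0.42 CPM. The non-coding 5830444B04Rik had -4.69 (adjusted p = 0.00124) and -3.25 after tamoxifen, Mfap3l had -1.28 (adjusted p = 0.00411) and -1.34, Plet1os had -1.39 (adjusted p = 0.00452) and -1.53, and Ppp1r16b had -1.64 (adjusted p = 0.00573) and -1.07.

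**Figure D3:**
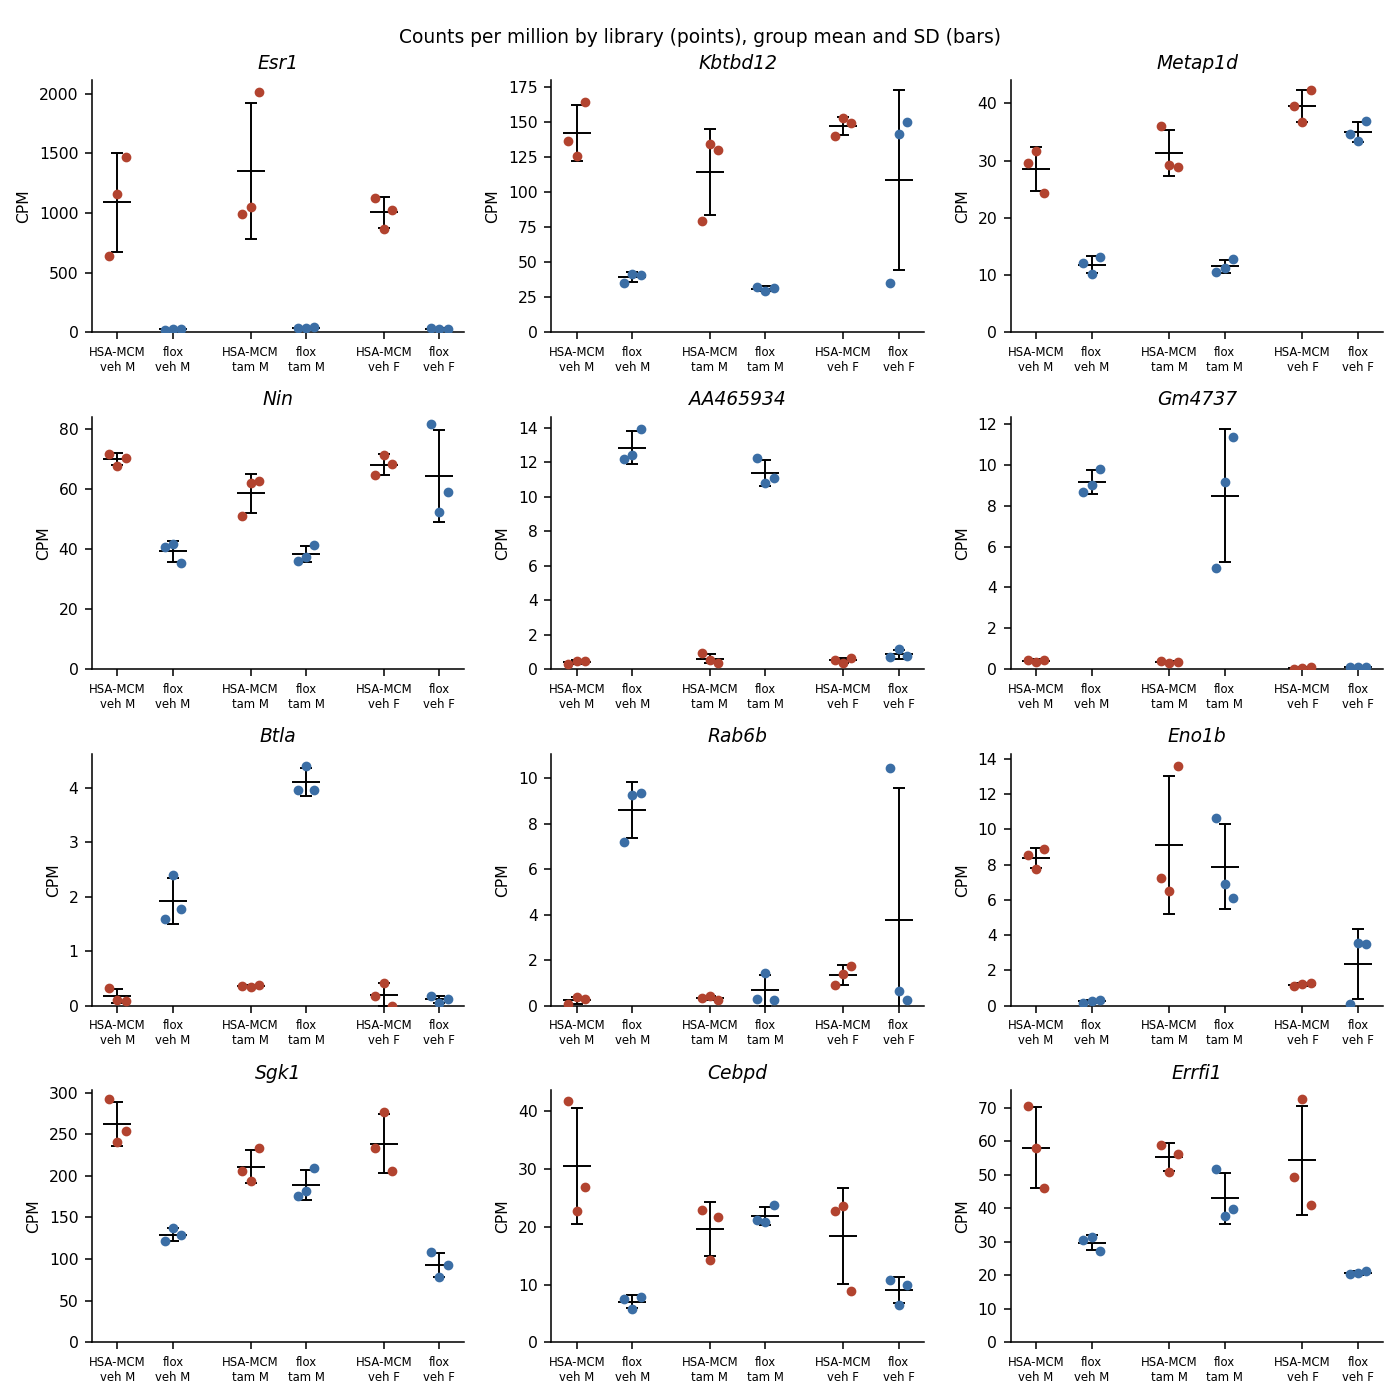
Level in CPM of 12 genes in each library, by genotype and treatment, with HSA-MCM left of flox for vehicle males, tamoxifen males and vehicle females; points are libraries and bars the mean ± SD of 3. Esr1 is high in all carrier groups, AA465934 and Gm4737 are high in flox males alone, and Sgk1, Cebpd and Errfi1 differ between the genotypes after vehicle.

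For 3 called genes all libraries of 1 genotype were at 0. Muc4, a membrane mucin, stood at 0.357, 0.259 and 0.331 CPM in HSA-MCM and at 0 in all flox vehicle males, at least 7.75-fold higher when the flox group is set at 3 counts over its libraries. Nek5, a NIMA-related kinase, stood at 0.285, 0.776 and 0.911 CPM in HSA-MCM and at 0 in all flox vehicle males, at least 15.8-fold higher on the same floor. Sycp1, a component of the meiotic synaptonemal complex, was at 0 in all HSA-MCM and at 0.450, 1.22 and 0.655 CPM in flox vehicle males, at least 21.1-fold lower. All 3 were called in the same direction after tamoxifen. Their vehicle calls were lost in turn without the first HSA-MCM library (Muc4, Sycp1), the third (Nek5, Sycp1), the first flox library (Muc4, Nek5) and the second (all 3), at adjusted p of 0.0579 to 0.0947 including the setting without replicate 3 of both groups. In flox vehicle females Muc4 was at 0.678 to 1.39 CPM and Nek5 at 1.03 to 1.47 CPM, so their absence was seen in flox males and not in flox females. Sycp1 was at 0 CPM in all vehicle females of both genotypes, so flox females did not have its level in flox males.

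Some called genes lay near each other on a chromosome, in most cases with uncalled genes tested between them. Taking called genes with starts within 1 Mb of each other and no other limit, 7 runs of 3 or more held 22 of the 148 genes, 11 runs of 2 held another 22, and 104 genes lay outside runs. The longest run, chr16:45224315-46155077, held 4 called genes of 7 tested there, Btla, Tagln3, Phldb2 and Gm4737, all lower in HSA-MCM. The run chr8:22073616-22220843 held Nek5, Nek3 and Vps36, the 3 genes tested in that span, all higher in HSA-MCM and all also called after tamoxifen. Nek3 stood at 4.03, 3.88 and 4.27 CPM in HSA-MCM and at 1.39, 1.72 and 2.57 CPM in flox vehicle males (log2 fold change 1.11, edgeR adjusted p = 0.0447). Other runs were sparser. In the run chr11:93859243-94549255, with 3 called of 14 tested, Utp18, a factor of ribosome assembly, was lower at -1.18 (adjusted p = 0.00573). Spag9 and Rsad1 were higher there at 0.67 and 1.39. In chr16:13903161-14475737, with 3 called of 6 tested, the export pump gene Abcc1 was higher at 0.65 (adjusted p = 0.00808). Fopnl was higher there at 0.53, and Mpv17l was lower at -1.30. Further runs were chr11:88253368-89020293 (3 of 8 tested, Gm38534, Scpep1 and Trim25, all lower) and chr16:31590196-32782391 (3 of 22 tested, Gm34256 lower, Cep19 and Muc4 higher). How many runs genes drawn without regard to position would form was not tested. Of the 22 run members, 6 kept their call in every setting, Btla, Gm4737, Trim25, Spag9 and Vps36 among them. Without the first, the second or the third HSA-MCM vehicle library 8, 5 and 9 members lost it, and without the first, the second or the third flox vehicle library 15, 12 and 5 members, at adjusted p of 0.0518 to 0.171.

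By chromosome, 13 of 482 genes tested on chromosome 16 (2.7%) and 19 of 1190 on chromosome 2 (1.6%) were called, against 0.947% of all genes. Chromosome 10, which carries Esr1 and Sgk1, had 3 of 776 (0.387%). These shares are a description, since neighbouring genes are not independent.

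**Figure D4:**
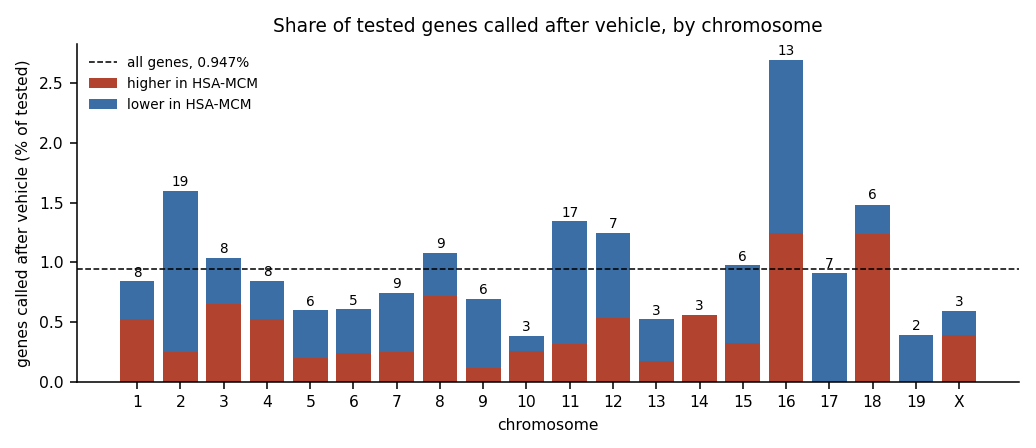
Percent of the genes tested on each chromosome that were called between HSA-MCM and flox vehicle males, stacked by direction (higher or lower in HSA-MCM), with the share over all genes, 0.947%, as a dashed line. Chromosome 16 has the highest share, 2.7%.

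Other genes were called after vehicle and not after tamoxifen. Eno1b, a near-identical copy of the enolase 1 gene at 99.5% identity, was one of them. It stood at 8.52, 7.76 and 8.87 CPM in HSA-MCM and at 0.164, 0.251 and 0.327 CPM in flox vehicle males. Its log2 fold change was 5.07 ± 0.40 (SE, edgeR adjusted p = 5.08e-05). After tamoxifen it was at 7.25, 6.48 and 13.6 CPM in HSA-MCM and at 10.7, 6.89 and 6.12 CPM in flox males, with overlapping groups and a log2 fold change of 0.21 (adjusted p = 0.709). The difference of the contrasts was 4.86 (adjusted p = 0.00478), a call not made by limma-voom (adjusted p = 0.15) or without replicate 3 of both vehicle groups (adjusted p = 0.0683). Among vehicle flox females, 1 library was at 0.0789 CPM and the others at 3.55 and 3.50 CPM, against 1.09 to 1.28 CPM in HSA-MCM females, so low and high libraries occurred within 1 genotype. Eno1b reads can be counted to Eno1 or to the further copies Gm4735 and Gm5855.

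Rab6b, a small GTPase of Golgi traffic, had the reverse pattern. It stood at 0.0713, 0.370 and 0.290 CPM in HSA-MCM and at 7.20, 9.26 and 9.35 CPM in flox vehicle males, a log2 fold change of -5.13 ± 0.58 (SE, edgeR adjusted p = 0.00154). After tamoxifen the HSA-MCM libraries held 0.361, 0.429 and 0.265 CPM and the flox libraries 0.289, 1.46 and 0.266 CPM, so the flox level of the vehicle mice was not seen there. The test of the difference, at -4.21, did not pass (adjusted p = 0.252), except without the second flox tamoxifen library (adjusted p = 0.0086) and in DESeq2 (adjusted p = 0.000314). Trim25, a ubiquitin ligase that acts on the RNA sensor RIG-I, stood at 9.38, 10.6 and 10.3 CPM in HSA-MCM and at 22.9, 19.9 and 22.1 CPM in flox vehicle males (-1.10 ± 0.10, adjusted p = 9.45e-05), with -0.29 after tamoxifen (adjusted p = 0.105), where its groups were still apart at 13.3 to 15.2 CPM in HSA-MCM and 16.03 to 18.0 CPM in flox males. Adamtsl1, a secreted matrix protein, stood at 11.0, 9.24 and 14.3 CPM in HSA-MCM and at 4.13, 3.63 and 2.29 CPM in flox vehicle males (1.77 ± 0.25, adjusted p = 0.00573), with 0.72 after tamoxifen (adjusted p = 0.118). The differences of the contrasts for Trim25 and Adamtsl1 did not pass the test.

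Of the 16 glucocorticoid-responsive genes listed, 3 rose in carriers after vehicle and 13 were not called, where 0.384% of all genes tested were called higher. The list median log2 fold change was 0.21. Sgk1, a kinase gene induced by serum and glucocorticoids, stood at 292, 241 and 254 CPM in HSA-MCM and at 122, 137 and 129 CPM in flox vehicle males, 2.03-fold higher with a log2 fold change of 1.02 ± 0.11 (SE, edgeR adjusted p = 0.000463). Cebpd, the transcription factor C/EBP delta, stood at 41.8, 22.7 and 26.8 CPM in HSA-MCM and at 7.44, 5.81 and 7.90 CPM in flox vehicle males, 4.33-fold higher (2.11 ± 0.24, adjusted p = 0.00182). Errfi1, an inhibitor of the EGF receptor, stood at 70.5, 57.9 and 46.1 CPM in HSA-MCM and at 30.7, 31.4 and 27.2 CPM in flox vehicle males (0.97 ± 0.15, adjusted p = 0.0101). The groups of all 3 genes were apart after vehicle. Sgk1 and Cebpd kept their calls in every setting, and Errfi1 lost its call without the first flox library (adjusted p = 0.0521).

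After tamoxifen none of the 3 was called, and the flox libraries lay near the carriers. Sgk1 was at 206, 194 and 233 CPM in HSA-MCM and at 176, 181 and 209.9 CPM in flox tamoxifen males (log2 fold change 0.16, edgeR adjusted p = 0.429). Cebpd had -0.16 (adjusted p = 0.752) and Errfi1 had 0.36 (adjusted p = 0.182). The difference of the contrasts was not called for Sgk1, Cebpd or Errfi1 (edgeR adjusted p = 0.162, 0.103 and 0.476). In vehicle females Sgk1 was at 234, 277 and 206 CPM in HSA-MCM against 108, 79.0 and 93.2 CPM in flox, and Errfi1 at 49.3, 72.6 and 41.0 CPM in HSA-MCM against 20.3, 20.6 and 21.4 CPM in flox, so both were apart in the same order as in males, while Cebpd overlapped. Most of the classical targets on the list did not follow. Fkbp5, the FKBP51 chaperone gene, had 0.09 (adjusted p = 0.879) and Tsc22d3, which encodes GILZ, had 0.08 (adjusted p = 0.933). Klf9 had 0.28 (adjusted p = 0.305) and Angptl4 had -1.51 (adjusted p = 0.231).

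The glucocorticoid receptor binds paired hexamers of the form AGAACA and TGTTCT. Of the 6 Sgk1 promoters in RefSeq (GRCm38.p6, 300 bases each, 250 before and 50 after the start), 1 holds the full site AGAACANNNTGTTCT, and it is shown because Sgk1 had the smallest p of the list. Hexamers on either strand are in capitals, chr10:21993640-21993939, plus strand.
Sgk1 promoter: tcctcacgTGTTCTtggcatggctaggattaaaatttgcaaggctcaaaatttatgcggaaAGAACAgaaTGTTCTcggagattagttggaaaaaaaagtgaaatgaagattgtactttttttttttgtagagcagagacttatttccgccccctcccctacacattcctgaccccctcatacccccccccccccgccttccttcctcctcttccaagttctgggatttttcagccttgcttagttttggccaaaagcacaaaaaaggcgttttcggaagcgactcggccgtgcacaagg
The hexamers start at bases 9, 62 and 71 of this window, the last pair forming the full site. Both strands were searched. The full site is in 3 of 32851 promoters (0.00913%), in 1 of the 13965 promoters of genes tested, in 1 of 57 promoters of the genes higher in HSA-MCM and in 0 of 82 promoters of the lower ones. The hexamer AGAACA is in 6233 of 32851 promoters (19%), in 1794 of the 13965 (12.8%) of genes tested, in 9 of 57 (15.8%) of the higher genes and in 12 of 82 (14.6%) of the lower genes. The palindromic oestrogen response element GGTCANNNTGACC was in 23 of 32851 promoters (0.07%), in 1 of the 13965 of genes tested and in 0 of these 57 and 0 of these 82. These counts are of promoter entries and not of genes. The 57 include the 6 entries of Sgk1, and the 1 full site among them is the site shown above. More than 1 of the 9 entries with the hexamer is also of Sgk1, so the share of 15.8% counts that gene several times. The promoter table held entries for 102 of the 148 called genes. The 2 Errfi1 entries hold no such hexamer, and Cebpd has no entry.

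Both immune lists had medians below 0 in carriers after vehicle, with few of their members called by edgeR. The list of 16 antigen presentation genes had a median log2 fold change of -0.63, against -0.02 over all genes and -0.02 for the same list after tamoxifen. On it 2 genes were called lower and 0 higher, against 0.563% and 0.384% of all genes tested. Its groups were apart and lower for 10 genes, as were 12.04% of all genes tested. An unadjusted p under 0.05 was seen for 11, against 17.2% of all genes, and DESeq2 called 6, of 601 genes it called in all. H2-T22 alone of the list was called lower after tamoxifen (-0.75, edgeR adjusted p = 0.00889). H2-D1, a class I histocompatibility antigen, stood at 66.1, 75.8 and 65.7 CPM in HSA-MCM and at 133, 97.7 and 109 CPM in flox vehicle males (-0.71 ± 0.13, edgeR adjusted p = 0.0255). H2-K1, another, stood at 55.9, 67.2 and 59.4 CPM in HSA-MCM and at 126, 85.9 and 107 CPM in flox vehicle males (-0.80 ± 0.16, adjusted p = 0.0329). Nlrc5, the activator of class I genes, stood at 1.07, 1.66 and 1.20 CPM in HSA-MCM and at 6.22, 4.06 and 2.99 CPM in flox vehicle males (-1.75 ± 0.30, adjusted p = 0.0165). The 25 interferon genes had a median of -0.62 after vehicle and 0.18 after tamoxifen, with 1 called lower, 0 higher and 9 apart in the lower direction. Of these 25, 13 had an unadjusted p under 0.05, and DESeq2 called 5. The gene called by edgeR, the immunity GTPase Tgtp2, had -1.60 (adjusted p = 0.0468), and since it is 99.8% identical to Tgtp1 (-1.94, adjusted p = 0.0975) the pair is uncertain.

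Outside these lists, and chosen after their values were seen except for Il2ra, Irf4 and Ifi27l2a, further immune genes were called lower. Il2ra, the interleukin 2 receptor alpha chain, stood at 0.571, 0.740 and 1.74 CPM in HSA-MCM and at 6.503, 6.60 and 5.28 CPM in flox vehicle males (-2.61 ± 0.44, edgeR adjusted p = 0.0188). The transcription factors Batf (-2.98, adjusted p = 0.0243), Irf4 (-1.70, adjusted p = 0.0409) and Irf1 (-0.92, adjusted p = 0.047) were lower. So were the chemokine Ccl3 (-3.09, adjusted p = 0.0329), the leukocyte tetraspanin Cd53 (-1.26, adjusted p = 0.0361), Tmem173, which encodes STING (-1.06, adjusted p = 0.0327), and the interferon-induced Ifi27l2a (-2.14, adjusted p = 0.0481). None of the 12 genes named as called lower in this and the preceding paragraph was called after tamoxifen, and for none was the difference of the contrasts called. Btla, described above, was called lower in both contrasts. All 12 lost their calls without the first HSA-MCM or the first flox library, 8 and 11 without the second and the third HSA-MCM library, and 9 and 3 without the second and the third flox library, at adjusted p of 0.0551 to 0.187. With all 12 libraries, limma-voom did not call Irf1, Irf4 (adjusted p = 0.0528 for both), Tgtp2 (0.0673) or Ifi27l2a (0.08), the fit with Myh7 as a covariate did not call Tgtp2 (0.066) or Ifi27l2a (0.0672), and without a filter on low counts Ifi27l2a was not called (0.0816). In bulk tissue, fewer immune cells and less of these transcripts per cell cannot be told apart. The macrophage markers had 0 of 12 called and 0 of 12 apart, against 0.947% and 22.6% of all genes tested. Their median was -0.42, with a summed level of 41.6 to 98.8 CPM in HSA-MCM and 69.5 to 107 CPM in flox vehicle males. Of the 12 lymphocyte markers 6 were tested and 0 called, with a summed level of 48.1 to 114 CPM in HSA-MCM and 51.2 to 54.7 CPM in flox vehicle males, and the other 6 were too low to test. Their part in the result was not tested.

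**Figure D5:**
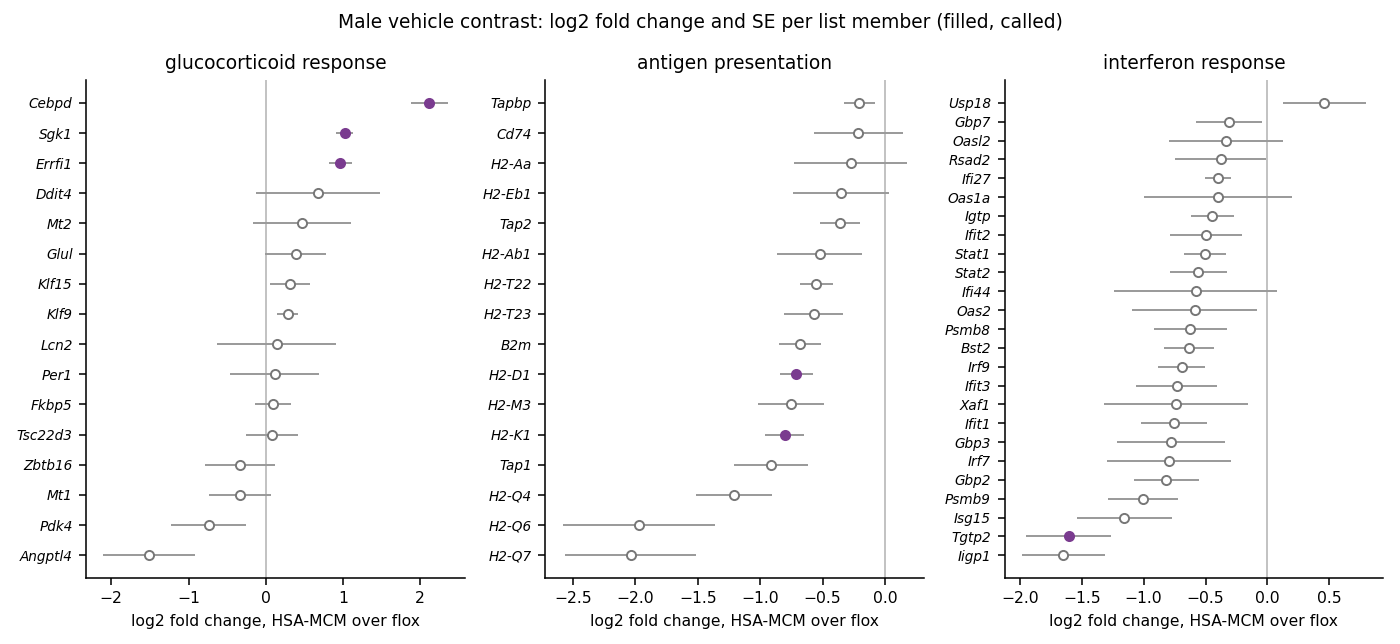
Log2 fold change of HSA-MCM over flox vehicle males (± SE, edgeR) for the members of the glucocorticoid, antigen presentation and interferon lists; filled points are called at adjusted p under 0.05. Filled points are 3 on the glucocorticoid list, all above 0, 2 on the antigen presentation list and 1 on the interferon list, all below 0.

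All 3 D-type cyclins, the partners of Cdk4 and Cdk6 in the entry to the cell cycle, were called lower in carriers after vehicle. Ccnd2 stood at 7.95, 8.13 and 7.33 CPM in HSA-MCM and at 15.1, 16.9 and 21.1 CPM in flox vehicle males (-1.18 ± 0.16, edgeR adjusted p = 0.00345). Ccnd1 stood at 3.99, 3.59 and 3.52 CPM in HSA-MCM and at 7.16, 7.47 and 6.27 CPM in flox vehicle males (-0.91 ± 0.14, adjusted p = 0.00808). Ccnd3 had -0.51 (adjusted p = 0.0468). Ccnd2 and Ccnd3 were named after their values were seen. The Ccnd2 call held in every setting, the Ccnd1 call was lost without the first flox library (adjusted p = 0.0503), and the Ccnd3 call was lost without any 1 of the 6 vehicle libraries (adjusted p = 0.0864 to 0.13). It was also lost with DESeq2 size factors (adjusted p = 0.0562), in limma-voom (0.0553) and with Myh7 as a covariate (0.06), and in 15 of 19 settings in all. After tamoxifen none was called, with -0.30 for Ccnd2 and -0.07 for Ccnd1.

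Myog, the muscle transcription factor myogenin that rises in regenerating and denervated muscle, stood at 1.43, 2.11 and 1.45 CPM in HSA-MCM and at 5.28, 4.99 and 10.9 CPM in flox vehicle males. It was called lower (-2.07 ± 0.36, edgeR adjusted p = 0.0217), and the call was lost without the first (adjusted p = 0.0963) or the third (adjusted p = 0.0975) HSA-MCM library. It was the only called gene of 13 tested on the embryonic and regeneration list and of 16 on the neuromuscular junction and denervation list. Over all genes tested 0.947% were called. After tamoxifen Myog had -0.81 (adjusted p = 0.189).

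A further 5 genes rose by less than 2-fold, and all but Dnajc3 were named after their values were seen. The potassium channel gene Kcnc4 had a log2 fold change of 0.73 (edgeR adjusted p = 0.0327) after vehicle and 0.72 after tamoxifen. The insulin receptor gene Insr had 0.47 (adjusted p = 0.0402) and the growth factor gene Tgfb2 had 0.52 (adjusted p = 0.0217), both also called after tamoxifen. Acvr1b, a type I activin receptor, had 0.68 (adjusted p = 0.0273) after vehicle and -0.08 after tamoxifen (adjusted p = 0.781). Dnajc3, a chaperone of the endoplasmic reticulum, had 0.60 (adjusted p = 0.00968) after vehicle and was also called after tamoxifen. It was the called gene of 21 on the unfolded protein response list, where 0.947% of all genes tested were called. Of these 5 calls, 5, 2 and 3 were lost without the first, the second or the third HSA-MCM vehicle library and 4, 4 and 3 without the first, the second or the third flox vehicle library (adjusted p 0.051 to 0.146).

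The remaining named rises and falls rested on few libraries in part. Among rises, Ctxn3 stood at 50.4, 33.2 and 62.0 CPM in HSA-MCM and at 12.3, 7.43 and 16.5 CPM in flox vehicle males (2.02 ± 0.29, edgeR adjusted p = 0.0112), losing its call without the first HSA-MCM or first flox library (highest adjusted p = 0.0907 over all settings). Tmem100 stood at 30.8, 26.5 and 36.6 CPM in HSA-MCM and at 10.5, 9.08 and 18.7 CPM in flox vehicle males (1.30 ± 0.23, adjusted p = 0.0275) and lost its call without the first or the third HSA-MCM and without the first or second flox library, at adjusted p of up to 0.126. The largest falls also held Map1a, a microtubule-associated protein (-1.54, adjusted p = 0.0273), Myo7a, an unconventional myosin (-1.63, adjusted p = 0.0412), and Ccdc173 (-1.64, adjusted p = 0.0112). Ccdc173 lost its call without the third HSA-MCM library (adjusted p = 0.0546), Myo7a without any 1 HSA-MCM library and without the first or the second flox library, and Map1a without any 1 HSA-MCM library and without the first flox library. Over the 12 largest falls the adjusted p of a lost call reached 0.187.

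Most lists held no called gene after vehicle, and the lists were chosen with earlier results of these data known. With edgeR, 0 of 28 Notch signalling genes, 0 of 27 endocytic adaptors and Numb partners, 0 of 15 slow fibre genes, 0 of 15 fast fibre genes, 0 of 37 nuclear oxidative phosphorylation genes, 0 of 30 extracellular matrix genes and 0 of 23 calcium handling genes were called. Over all genes tested 0.947% were called. At that share most lists of this size would hold none, so the counts of 0 do not set these lists apart. At an unadjusted p under 0.05 these lists had 7, 6, 0, 3, 1, 4 and 8 genes in the same order, where 2690 of 15628 genes tested (17.2%) did, and DESeq2 called 1, 2, 0, 0, 0, 1 and 1. Of the 23 calcium handling genes 7 were apart and higher in HSA-MCM, as were 10.6% of all genes tested. Their median log2 fold change was 0.18, against -0.02 over all genes. On the oestrogen response list Ccnd1 alone of 15 tested genes was called, in the lower direction. On the p53 list Rrm2b, a ribonucleotide reductase subunit, alone of 20 was called (-0.36, adjusted p = 0.0429), and that call was lost without any 1 of the 6 vehicle libraries.

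Of the 12 marker lists, those of erythrocytes, tendon and adipocytes had most of their tested members apart and lower in carriers, as were 12.04% of all genes tested, without a call in edgeR. Other lists lay elsewhere, with a median log2 fold change of 0.92 over 6 neutrophil markers and of 0.07 over 9 satellite cell markers, none of them called. Erythrocyte markers summed to 323 to 408 CPM in HSA-MCM and 591 to 1094 CPM in flox vehicle males, with 5 of 6 tested markers apart and lower and a median log2 fold change of -1.10. Tendon and myotendinous junction markers summed to 122 to 172 CPM in HSA-MCM and 193 to 270 CPM in flox vehicle males, with 7 of 12 apart and lower and a median of -1.19. Adipocyte markers summed to 1446 to 1885 CPM in HSA-MCM and 1708 to 2693 CPM in flox vehicle males, with 9 of 14 apart and lower and a median of -1.16. None of these 3 lists had a member called by edgeR, while 6, 9 and 7 members had an unadjusted p under 0.05, against 17.2% of all genes tested, and DESeq2 called 4, 3 and 1. Their part in the results above was not tested.

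The female libraries allow a side-by-side view but no test, since HSA-MCM and flox females lie in separate tables and table and genotype cannot be told apart. Of the 148 genes called in vehicle males, the vehicle females of the genotypes were apart in the same direction for 36, apart in the opposite direction for 16 and overlapping for 96, where 31.2% of all genes tested were apart in females. Of the 78 genes called in both male contrasts, 21 were apart in the same direction, 12 in the opposite direction and 45 overlapped. Esr1, Sgk1 and Errfi1 followed the males. Genes apart in the opposite direction included Map2k7, at 48.6 to 55.0 CPM in HSA-MCM against 59.1 to 60.6 CPM in flox females, Snapc2, at 8.72 to 10.7 CPM in HSA-MCM against 11.3 to 12.1 CPM in flox females, and Rpl3-ps1, at 0.0623 to 0.209 CPM in HSA-MCM against 2.47 to 2.52 CPM in flox females. Nlrc5 and Ccnd2, both lower in male carriers, were higher in female carriers with the groups apart. Nlrc5 was at 2.41 to 7.48 CPM in HSA-MCM against 1.71 to 1.95 CPM in flox females. Ccnd2 was at 8.15 to 8.85 CPM in HSA-MCM against 6.55 to 7.75 CPM in flox females. Metap1d, at 39.6, 36.8 and 42.4 CPM in HSA-MCM females against 34.7, 33.4 and 36.9 CPM in flox females, overlapped narrowly, and flox females did not have the low level of flox males.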

How the data were processed

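Gastrocnemius RNA was sequenced, and the authors deposited raw read counts per Ensembl gene in 3 tables, 1 for males and 1 for each female genotype. STAR, featureCounts, limma and the GRCm38 and mm10 builds are named without versions in the submitters' processing notes. Neither kit, strand nor the treatment of multiply mapped reads is stated there or in the labels. Symbols and coordinates came from GENCODE M21 (GRCm38), matching 54723 of 54752 gene IDs. Counts of the 12 male libraries (21516819 to 29982077 each) were fitted in edgeR 4.0.16 (R 4.3.3) with a mean for each of 4 groups, TMM scaling, filterByExpr (minimum count 10, total 15) and the robust quasi-likelihood F-test, adjusted by Benjamini-Hochberg over 15628 genes at 0.05. Standard errors are the log2 fold change over the root of F. Alternatives used DESeq2 1.42.0 and limma 3.58.1. The fit was checked on simulated counts. Replicate pairs differed beyond sampling noise. Female CPM used TMM over the 6 vehicle females and were not tested.

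Named genes were Esr1, Acta1, Numb, Numbl and Flrt1, the 12 largest rises and 12 largest falls with mean log2 CPM of at least 0, a gene symbol that is not a clone name and groups apart, up to 15 genes called in both contrasts by smallest p, up to 4 members of each run and up to 4 called members of each list. The members and lists were chosen with earlier results of these data known. Some genes that this rule names are not reported here. There were 27 pathway lists and 12 marker lists. Beyond those described, the strain-variable, septin, atrophy, heat shock, circadian, immediate early, glycolysis, fatty acid, cholesterol, sarcomere, polyamine, satellite cell, fibroblast, endothelium, smooth muscle, Schwann cell, neutrophil and muscle fibre lists had 0 genes called by edgeR, where 0.947% of all genes tested were called. These lists had 0 to 10 genes each at an unadjusted p under 0.05, with DESeq2 calling 0 to 3. Of these, the strain-variable list had 7 of 12 tested genes at an unadjusted p under 0.05, against 17.2% of all genes tested, and DESeq2 called 3. Its groups were apart and higher in HSA-MCM for 3 genes and lower for 4, against 10.6% and 12.04% of all genes tested. The heat shock list had 10 of 20 at an unadjusted p under 0.05, and DESeq2 called 3.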

Additional observations from a re-analysis of the deposited data

Results flagged for a closer look

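Eno1b had a larger genotype difference after vehicle than after tamoxifen in males, at a log2 difference of 4.86 (edgeR adjusted p = 0.00478), higher in 3 of 3 HSA-MCM vehicle libraries. Aldh3a1, an aldehyde dehydrogenase gene not called after vehicle, stood at 0.357, 0.148 and 0.331 CPM in HSA-MCM and at 0.164, 0.108 and 0.140 CPM in flox vehicle males. After tamoxifen it was at 0.252, 0.172 and 0.302 CPM in HSA-MCM and at 4.01, 5.86 and 8.31 CPM in flox males, giving a log2 difference between the contrasts of 5.61 (edgeR adjusted p = 0.00644), so the high level was seen in flox tamoxifen libraries alone. Limma-voom called neither (adjusted p = 0.15 for both), the setting without replicate 3 of both vehicle groups called neither (adjusted p = 0.0683 for both), and Aldh3a1 lost its call without the first HSA-MCM vehicle library (adjusted p = 0.0531).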

How the results depend on the processing

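The counts for vehicle, tamoxifen, their difference and calls shared by both were 148, 817, 2 and 78. With DESeq2 size factors each stayed within 1.5 times. Without a filter on low counts 327 genes were called after vehicle, 38 in the difference and 128 in both. DESeq2 called 601 after vehicle, 1312 after tamoxifen, 79 in the difference and 243 in both, with 146 of the 148. Limma-voom called 0 in the difference (1313 at an unadjusted p under 0.05) and 130 after vehicle. With Myh7 as a covariate 491 were called after tamoxifen and 4 in the difference. Leaving out 1 library gave 44 to 204 after vehicle, 280 to 997 after tamoxifen, 2 to 8 in the difference and 32 to 102 in both. The tamoxifen count was 533 and 354 without the second and the third HSA-MCM tamoxifen library, and 351, 293 and 280 without the first, the second and the third flox one. Without replicate 3 of both vehicle groups, chosen after the data were seen, 72 were called after vehicle, 1210 after tamoxifen, 42 in both and 2 in the difference, sharing 0 genes with the 2 above. With the 6 vehicle males alone 111 were called, 74 of them among the 148. Of 77 called genes taken by the naming rule or after their values were seen, 28 kept their call in every setting where they had a value, 65 kept it in every setting with all 12 libraries, and none changed direction. Numb, not called, ranged from -0.0389 to 0.0757 without 1 library, with -0.0351 without the second HSA-MCM library, and was -0.0253 without replicate 3 of both vehicle groups.

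No paired analysis was possible because the male groups compared carry different title numbers and share none. The limits are 3 libraries a group, genotype moving with title series, near-identical copies whose reads cannot be assigned with certainty, and low levels: genes near 0.1 CPM rest on a few counts.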

Other observations

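For 4 of the 148 genes called in vehicle males, the first flox vehicle female lay at least 2-fold from both other flox females, and in all 4 it lay on the side of the flox males. These were Eno1b (0.0789 CPM against 3.55 and 3.50 CPM), Kbtbd12 (35.0 CPM against 141 and 150 CPM), Rab6b (10.5 CPM against 0.651 and 0.245 CPM) and 5830444B04Rik (1.24 CPM against 0.298 and 0.0978 CPM). The second and the third flox females each lay 2-fold from both others for 0 of the 148 genes. Within their own group, the first, the second and the third HSA-MCM vehicle female did so for 1, 1 and 3 of the 148. For the third HSA-MCM female, 2 of the 3 lay toward the flox males and 1 toward the HSA-MCM males. Over all 15628 genes the first, the second and the third flox female did so for 38, 46 and 39 genes, after adding 0.5 CPM to each level. The HSA-MCM females did so for 37, 57 and 71 genes. The 4 genes were picked from these values, and no test was made.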
